A study of Mus musculus with 9 samples.

Results

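The comparison set out here is between the cortex of mice with experimental autoimmune encephalomyelitis (EAE) that received the gold nanocluster Au18(L-NIBC)14 and the cortex of naive mice. Its members were taken by label: 6 of the 9 RNA libraries of the series, 3 treated and 3 naive, and every gene that passed a filter on low counts, 18644 of 34714 gene symbols. The other 3 libraries are from EAE without the nanocluster. They entered the same model, where they help to estimate the spread, and their values are set beside the treated ones. Spread within EAE can therefore widen the intervals of treated against naive. The labels give the tissue as brain, and the protocol says that the RNA is from the cortex, enriched for poly(A) RNA.

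In the naive group the labels name no disease and no agent. Both other groups have EAE, and the treated group alone carries the label for Au18(L-NIBC)14, a cluster of 18 gold atoms held by 14 ligands of N-isobutyryl-L-cysteine. The sources used here do not give the strain, sex or age, how EAE was induced, its clinical stage, the dose and schedule, or whether naive and EAE mice received a vehicle. The titles number the brains from 1 to 3 in each group. No label says how the replicates were taken beyond that, so the p-values measure the spread between these samples, part of which may be technical. Because the groups differ from naive in both disease and treatment, an effect of the nanocluster in healthy cortex cannot be told apart from what is left of the disease.

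EAE is a mouse model of multiple sclerosis in which T cells against myelin enter the central nervous system, recruit monocytes and activate microglia and astrocytes. The disease also raises acute-phase and adrenal stress signals in the body, which reach the brain through its vessels and act on genes with glucocorticoid, STAT and C/EBP control. The pathway that the series names, NOD-like receptor signalling, holds the inflammasome: a sensor such as NLRP3 gathers the adaptor ASC (gene Pycard), which activates caspase-1, and caspase-1 matures interleukin-1 beta and interleukin-18 and cleaves gasdermin D to open pores in the membrane. A comparison of treated disease with naive tissue asks what remains of such responses, and its value depends on how small a difference it could have found.

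Total counts were between 26972179 and 45243553 in the naive and between 27725592 and 42809145 in the treated libraries. Library pairs of the same group differed well beyond sampling noise, with chi-square values per degree of freedom between 17.3 and 58.2, so each counts as a library of its own. Markers of cortical projection neurons had an even sum, 2150 to 2260 CPM (counts scaled to library size) in naive and 2230 to 2330 CPM in treated cortex. Slc17a7 alone gave 1230 to 1380 CPM of it in naive and 1390 to 1440 CPM in treated libraries. The mean log2 deviation of the 12 markers from the naive mean ran from -0.169 to 0.132 in naive and from -0.131 to 0.081 in treated libraries. The share of neighbouring tissue was less even. Striatal markers summed to 423 to 2590 CPM in naive and 601 to 1740 CPM in treated libraries, and myelin markers to 5170 to 7850 and 3160 to 10300 CPM.

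No gene differed between treated EAE and naive cortex by edgeR's quasi-likelihood test at a Benjamini-Hochberg adjusted p under 0.05, a share of 0% of the 18644 genes tested. Every adjusted p was 1. At an unadjusted p under 0.05 there were 318 genes (1.71%), 199 higher (1.07%) and 119 lower (0.638%) in treated cortex, fewer than the 5% that evenly spread p-values would place there. The 3 treated libraries lay wholly above or wholly below the 3 naive ones for 1165 genes (6.25%), of which 654 were higher (3.51%) and 511 lower (2.74%). They lay outside all 6 naive and EAE libraries for 257 genes (1.38%), 125 higher (0.67%) and 132 lower (0.708%). With 3 libraries per group such separation also arises where groups do not differ, so these are not counts of changed genes. limma-voom also called 0 genes, with 326 at an unadjusted p under 0.05. DESeq2, the tool named in the series' design text, called 3 genes, all higher in treated cortex and all past the study's stated limit of 1 on the absolute log2 fold change: Lrch4, Lcn2 and the predicted gene Gm46731. Gm46731 had 0 counts in every naive library and in treated replicate 2, 186 and 236 counts in treated replicates 1 and 3, and 163, 0 and 0 counts in EAE. The count at an unadjusted p under 0.05 was 593 without treated replicate 1 and 677 without treated replicate 3, and no gene was called by edgeR with any 1 library left out.

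The fold changes lay close around 0. The median over all tested genes was 0.01 on the log2 scale, 93.8% of genes were within 0.5 of 0 and 188 genes were beyond 1 in absolute value. In the same fit EAE without the nanocluster differed from the same 3 naive libraries in 184 genes (0.987%), 137 higher (0.735%) and 47 lower (0.252%). Treated EAE differed from untreated EAE in 41 genes (0.22%). The 3 comparisons share libraries in pairs, so their counts are not independent of each other.

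**Figure D1:**
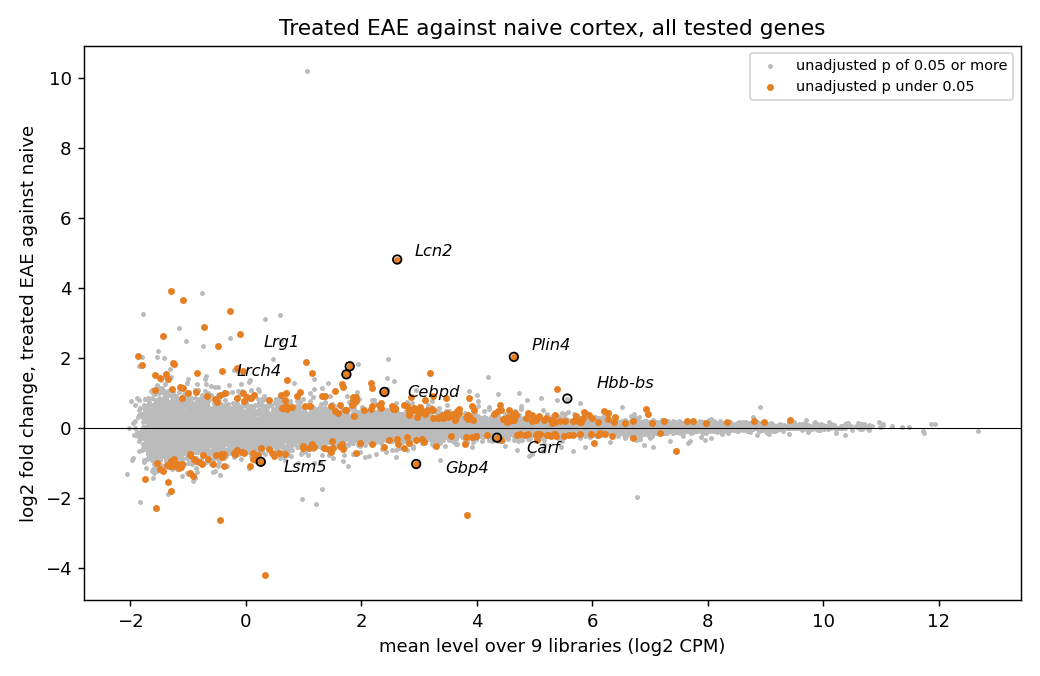
Each point is 1 of 18644 tested genes, with the mean level over 9 libraries in log2 CPM on the x axis and the log2 fold change of treated EAE against naive cortex on the y axis; orange marks the 318 genes at an unadjusted p under 0.05. The cloud narrows towards highly expressed genes, and the labelled genes Lcn2, Plin4, Lrg1 and Lrch4 sit above it at low to moderate levels. The uppermost point is Gm46731, which had 0 counts in all naive libraries.

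How large a difference could have gone undetected follows from the 95% interval of each gene's fold change. For the median gene the standard error was 0.15 and the interval reached 0.33 to either side on the log2 scale, a factor of 1.26. The whole interval lay between -1 and 1 for 14865 genes (79.7%) and between -0.5 and 0.5 for 10323 genes (55.4%). For the former, a doubling or halving in treated cortex is outside the interval. Each interval covers 95% for 1 gene and is not adjusted for the number of genes. The spread behind it is estimated over all 3 groups, so genes uneven within EAE get wide intervals here too. H2-Q6, for example, was at 3.75, 2.86 and 3.31 CPM in naive and 1.98, 2.18 and 1.84 CPM in treated cortex. Its SE was 0.42, with EAE libraries at 2.6, 10.6 and 5.28 CPM.

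Precision depended on the level of the gene. Of the 8121 genes with a mean of 10 to 100 CPM, 97.5% had an interval between -1 and 1, and the median half-width was 0.22, a factor of 1.17. Of the 2512 genes at 100 CPM or more, 98.9% did, with a median half-width of 0.20. Intervals between -0.5 and 0.5 were found for 85.2% of genes at 10 to 100 CPM and 92.6% at 100 CPM or more. Among the 5083 genes between 1 and 10 CPM the share was 76.8% and the median half-width 0.55, a factor of 1.46. Below 1 CPM, where many cytokines and leukocyte genes are, only 19% of 2928 genes were so bounded and the median half-width was 0.99, a factor of 1.99.

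A call asks for more than an interval clear of 0. To pass the adjusted threshold as the only changed gene, the median gene needed a log2 fold change of 1.46, a factor of 2.75, and 6046 genes (32.4%) needed less than 1. At 10 to 100 CPM the median need was a factor of 1.95, and below 1 CPM a factor of 19.7. The need falls when many genes change together. In EAE against naive, at the same median standard error of 0.15, the 184 called genes had a median absolute log2 fold change of 0.93, and the smallest that was called was 0.34.

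**Figure D2:**
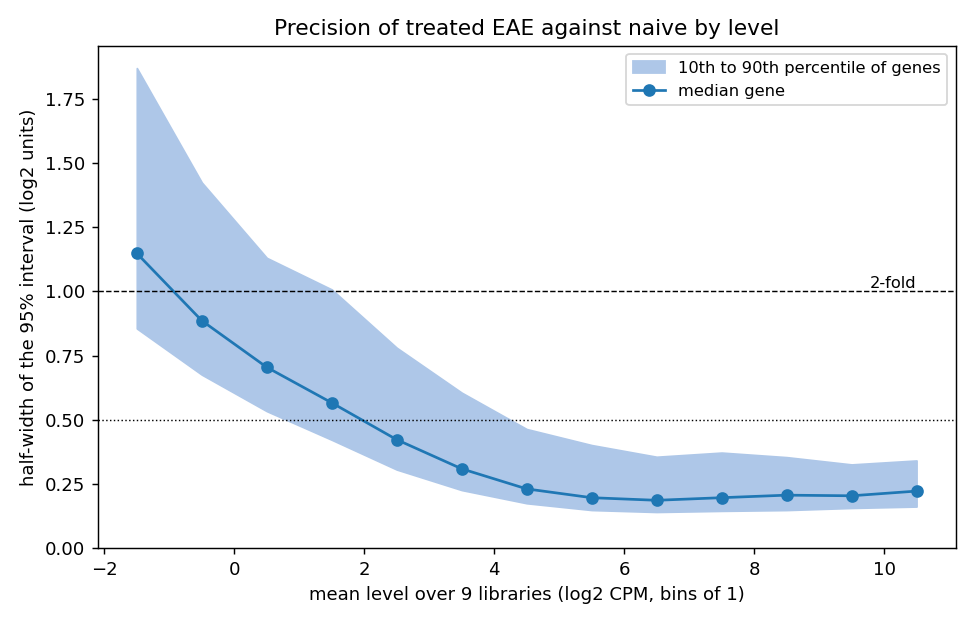
The half-width of the 95% interval of the log2 fold change (y axis) is plotted against the mean level over 9 libraries in log2 CPM (x axis, bins of 1), as the median gene with the 10th to 90th percentile shaded. The median falls from above the dashed 2-fold line in the lowest bin to about 0.2 from a level of 5 upwards.

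Since no gene was called, the 10 genes with the smallest p in each direction are described, with values only. Among those 10 higher genes were several that acute-phase signals and glucocorticoids are known to induce: Lcn2 (lipocalin 2, a secreted iron-siderophore carrier), Lrg1 (a secreted glycoprotein of inflamed vessels), Cebpd (the transcription factor C/EBP delta) and Plin4 (a lipid droplet coat protein). The others were Lrch4, Tmem252, Phtf1os, Acer2 (a Golgi ceramidase), Cmklr1 (the chemerin receptor) and Atp10a (a phospholipid flippase). For 9 of the 10 the RefSeq promoter table (GRCm38.p6) has an entry. The 250 bases before the start are shown for Lrch4, with the smallest p, and for Lcn2 and Lrg1, the pair of secreted acute-phase products, all read 5′ to 3′ along the gene; capitals mark matches to the motifs searched.
Lrch4, chr5:137628873-137629122, + strand: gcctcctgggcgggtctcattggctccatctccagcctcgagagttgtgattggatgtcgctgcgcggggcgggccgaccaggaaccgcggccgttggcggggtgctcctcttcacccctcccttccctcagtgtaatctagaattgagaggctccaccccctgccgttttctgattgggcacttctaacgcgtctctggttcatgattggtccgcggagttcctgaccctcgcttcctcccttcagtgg
Lcn2, chr2:32387740-32387989, - strand: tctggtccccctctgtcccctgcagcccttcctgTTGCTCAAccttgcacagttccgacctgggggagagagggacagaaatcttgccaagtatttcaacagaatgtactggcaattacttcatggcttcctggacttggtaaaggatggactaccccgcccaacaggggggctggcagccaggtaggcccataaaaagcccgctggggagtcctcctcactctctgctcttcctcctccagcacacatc
Lrg1, chr17:56121947-56122196, - strand: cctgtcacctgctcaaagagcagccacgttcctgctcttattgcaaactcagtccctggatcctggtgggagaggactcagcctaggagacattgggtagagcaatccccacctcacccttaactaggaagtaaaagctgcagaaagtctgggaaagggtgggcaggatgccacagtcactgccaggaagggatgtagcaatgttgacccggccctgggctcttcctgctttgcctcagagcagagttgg

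Both strands were searched for the STAT palindrome TTCNNNGAA, the C/EBP palindrome TTGCGCAA, the looser C/EBP form TTGCNNAA, which includes the palindrome, and the kappaB consensus. The Lcn2 window held 1 match, TTGCTCAA, to the looser C/EBP form, from 216 to 209 bases before the start. That form occurs in 9.56% of 32851 promoter windows of the same length, the STAT palindrome in 7.02%, the kappaB consensus in 3.9% and the C/EBP palindrome in 0.164%. The windows of Lrch4 and Lrg1 held none of these letters. Those of Ddit4 and Plin4, searched but not shown, held none either, and the Plin4 entry starts inside the gene interval given below. A match is a run of letters and no evidence of binding.

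Lrch4 (leucine-rich repeat and calponin homology domain protein; chromosome 5, 137629123 to 137641099) was at 1.1, 1.36 and 1.03 CPM in naive and at 3.32, 4.27 and 2.43 CPM in treated replicates 1, 2 and 3. All treated libraries lay above all naive ones, and EAE libraries at 6.65, 4.14 and 5.28 CPM overlapped with the treated. The log2 fold change was 1.53 (SE 0.27, interval 0.93 to 2.13), with an unadjusted edgeR p of 0.000219 and an adjusted p of 1. By DESeq2 it was 1.53 with an adjusted p of 0.00339. Exons of Lrch4 and of Gm20605 overlap on the same strand, so their reads may be shared.

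Lcn2 (chromosome 2, 32384637 to 32387739) was close to absent in naive cortex, at 0.268, 0.11 and 0.138 CPM. In treated EAE it was at 2.15, 9.39 and 4.23 CPM, in EAE at 2.27, 7.89 and 28.7 CPM. No treated library was as low as any naive one, and the treated values lay within the EAE range or just under it. The log2 fold change of treated against naive was 4.81 (SE 1.19, interval 2.08 to 7.55), which edgeR did not call and DESeq2 did (adjusted p = 0.00903). It was 6.11 for EAE against naive, also not called by edgeR (adjusted p = 0.06).

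Lrg1 (chromosome 17, 56119678 to 56121946) was at 1.14, 0.807 and 1.28 CPM in naive and 1.71, 6.31 and 2.94 CPM in treated cortex, with EAE at 4.74, 6.82 and 5.04 CPM. Its log2 fold change was 1.76 (SE 0.44, interval 0.76 to 2.76). Plin4 (chromosome 17, 56100587 to 56109948) was at 2.68, 2.46 and 2.83 CPM in naive, 3.98, 20.8 and 7.68 CPM in treated and 65.2, 62.5 and 56.5 CPM in EAE cortex. Its estimate was 2.03 (SE 0.54, interval 0.79 to 3.27) against 4.53 for EAE. In all of Lcn2, Lrg1 and Plin4 treated replicate 2 was the highest treated library and replicate 1 the lowest. Without treated replicate 2 the estimates were 4.06, 1.08 and 1.10. Hdgfl2 overlaps Plin4 on the opposite strand, and the strand setting of the counting is not known.

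Cebpd (chromosome 16, 15887286 to 15889545) had naive values of 2.03, 2.16 and 2.38 CPM and treated values of 3.17, 5.36 and 4.89 CPM. Its EAE values were 7.14, 9.44 and 10.6 CPM, so the treated libraries formed a group of their own between the naive and the EAE libraries. The log2 fold change was 1.03 (SE 0.23, interval 0.52 to 1.54) against naive. Against EAE it was -1.02 (adjusted p = 0.0953). Exons of Spidr overlap Cebpd on the opposite strand.

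The estimates of the remaining genes of the 10 were 1.58 for Tmem252, 0.90 for Phtf1os, 0.90 for Cmklr1, 0.63 for Acer2 and 0.43 for Atp10a. Their treated libraries all lay above their naive libraries. Acer2 was at 9.16, 11.2 and 9.82 CPM in naive, 13.1, 17.7 and 15.8 CPM in treated and 16.1, 23 and 18.9 CPM in EAE cortex. Phtf1os, an antisense transcript whose exons overlap Phtf1 and Rsbn1, was the only one of the 10 whose treated libraries also lay above every EAE library, at 3.35, 3.44 and 2.72 CPM against 2.5, 2.49 and 2.15 CPM.

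**Figure D3:**
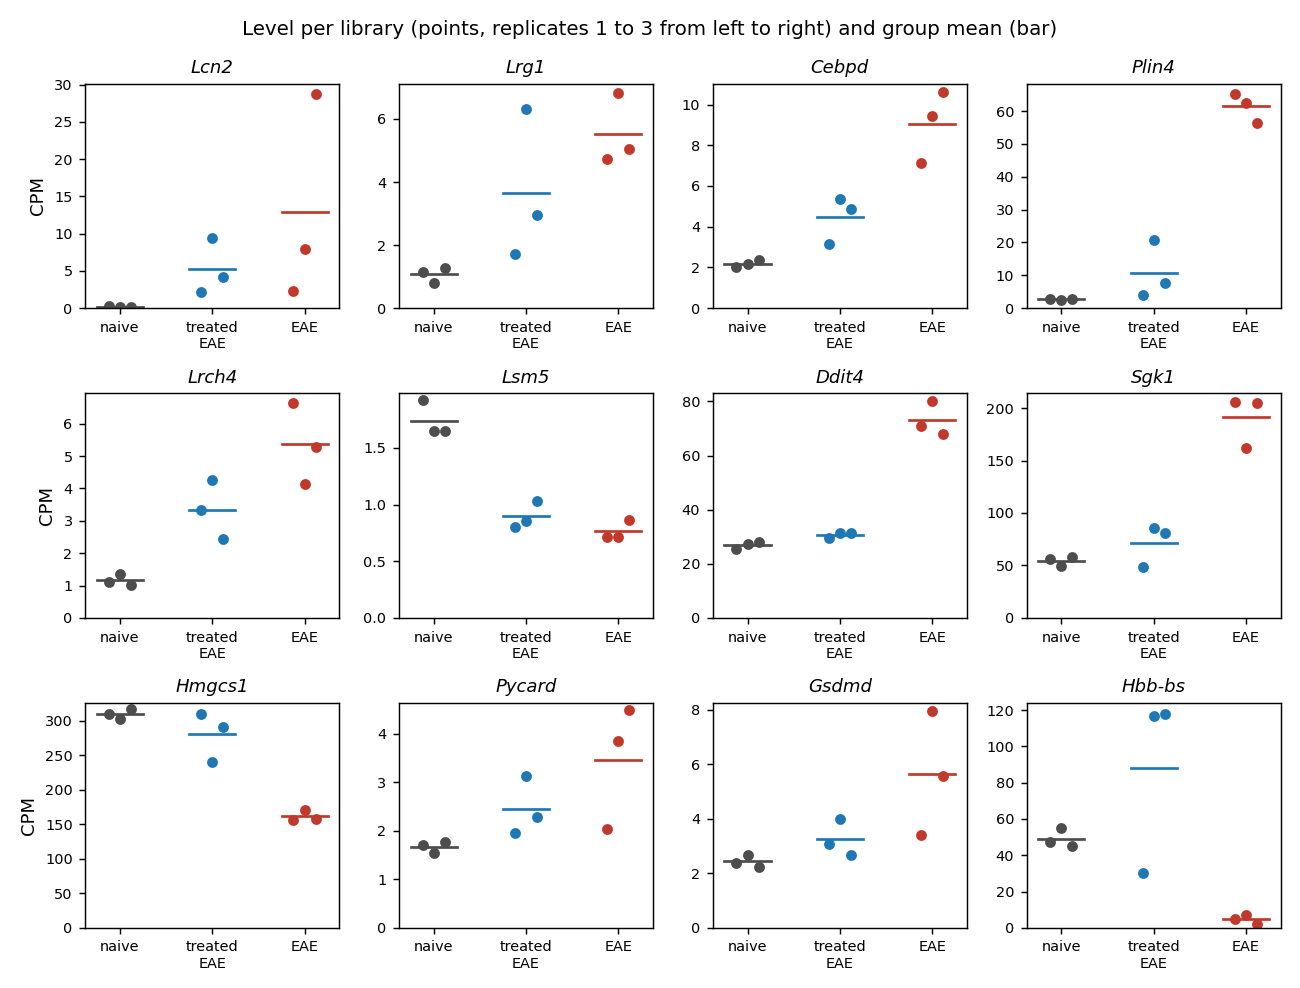
The level of 12 genes in CPM (y axes, each from 0) is shown for every library of the naive, treated EAE and EAE groups, with replicates 1 to 3 from left to right and a bar at the group mean. Lcn2, Lrg1, Cebpd, Plin4 and Lrch4 are higher in every treated than in every naive library, Lsm5 is lower, Ddit4, Sgk1 and Hmgcs1 lie near naive, and Hbb-bs is at 117 and 118 CPM in treated replicates 2 and 3.

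Among the 10 genes with the smallest p that were lower in treated cortex, Lsm5 (a subunit of the Lsm ring that binds U6 and decaying RNA; chromosome 6, 56701063 to 56704699) came first. It was at 1.92, 1.65 and 1.65 CPM in naive, 0.806, 0.854 and 1.03 CPM in treated and 0.714, 0.712 and 0.868 CPM in EAE cortex, a log2 fold change of -0.97 (SE 0.23, interval -1.47 to -0.46). Treated and EAE libraries overlapped there, and all were below naive. Lsm5 was called in EAE against naive, at -1.19 (adjusted p = 0.0495).

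Gbp4, an interferon-inducible guanylate-binding protein (chromosome 5, 105115767 to 105139586), was at 13.5, 8.76 and 12.2 CPM in naive and at 4.25, 5.64 and 7.09 CPM in treated cortex. The EAE values of 3.18, 6.92 and 7.4 CPM were as low, and neither comparison was called. The estimates were -1.03 (SE 0.32, interval -1.75 to -0.31) for treated and -0.98 for EAE. Gbp4 shares exons with Gbp8 and Gbp9, so reads may be split among them.

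The other 8 had estimates from -0.73 to -0.21: Cfap97d2 (-0.73), Melk (-0.71), Rbks (-0.57), Sema3f (-0.46), Plag1 (-0.40), Carf (-0.28), Ube2e1 (-0.22) and Dazap1 (-0.21). Carf, a calcium-responsive transcription factor, was at 22, 21.2 and 21.8 CPM in naive, 18.8, 17.1 and 17.8 CPM in treated and 21.3, 22.5 and 20.5 CPM in EAE cortex. Its treated libraries were below all 6 others, and its interval of -0.45 to -0.11 was among the narrow ones. The same position below all 6 others held for Dazap1 and Rbks.

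The list of 24 glucocorticoid-induced genes holds stress hormone targets such as Sgk1 (a kinase), Ddit4 (an inhibitor of mTORC1), Fkbp5 (a chaperone of the glucocorticoid receptor) and Nfkbia (the inhibitor of NF-kB). All 24 were tested, 20 estimates were above 0, and the median was 0.26 against 0.01 over all genes. Of them 10 were at an unadjusted p under 0.05, all higher, beside 1.07% of all tested genes that were higher at that level. The list and its strong response in EAE (median 1.09, 13 genes called higher, beside 0.735% of all tested genes) were known when it was chosen. Both comparisons use the same naive libraries. Relative to the naive mean, the members' mean log2 deviation was 0.19, 0.74 and 0.56 in treated replicates 1, 2 and 3, and between -0.04 and 0.05 in the naive libraries.

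Ddit4 (chromosome 10, 59949675 to 59951770) shows how close such a gene came to naive. It was at 25.5, 27.3 and 28.1 CPM in naive, 29.4, 31.3 and 31.4 CPM in treated and 71.1, 80.2 and 67.8 CPM in EAE cortex. Its treated libraries lay just above the naive ones and far under EAE. The log2 fold change was 0.19 (SE 0.08, interval 0.01 to 0.37) against naive and -1.25 against EAE, and the second was called (adjusted p = 0.000623). EAE against naive was 1.44.

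Sgk1 (chromosome 10, 21882184 to 21999903) was at 55.9, 49.8 and 58.5 CPM in naive, 48.5, 85.5 and 80.5 CPM in treated and 206, 162 and 205 CPM in EAE cortex. Treated replicate 1 was below every naive library, and replicates 2 and 3 above them. The interval against naive was -0.06 to 0.83 around 0.39, while treated against EAE was called at -1.42 (adjusted p = 0.0456). For Nfkbia the interval was -0.05 to 0.56 around 0.25, with treated against EAE called at -0.96 (adjusted p = 0.0364).

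Fkbp5 had 30.9, 29.7 and 23 CPM in naive, 41.2, 46.7 and 22.4 CPM in treated and 92.7, 101 and 75.3 CPM in EAE cortex. Its treated replicate 3 was at the naive level. The interval of -0.17 to 0.98 around 0.40 leaves room for nearly a doubling over naive. Further members at an unadjusted p under 0.05 were Hif3a (0.85), Angptl4 (0.89), Sult1a1 (0.51), Map3k6 (0.51), Mt2 (0.28) and Mertk (0.28), beside Lcn2, Plin4, Cebpd and Ddit4. Rtp1, a receptor-transporting protein outside the list with one of the strongest EAE responses (4.23), was at 0.492, 0.66 and 0.414 CPM in naive and 1.07, 0.925 and 0.625 CPM in treated cortex, an estimate of 0.77 (interval 0.10 to 1.44).

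**Figure D4:**
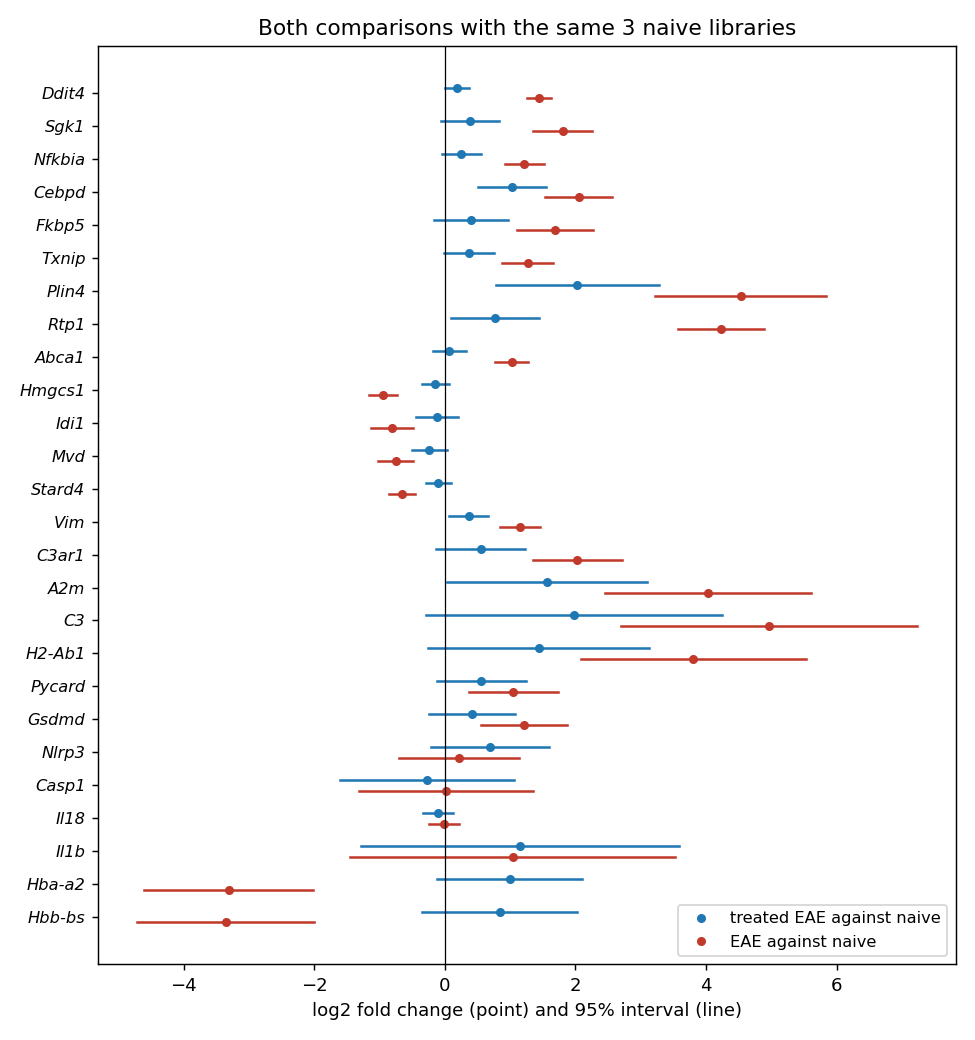
Points are log2 fold changes against the same 3 naive libraries and lines their 95% intervals, in blue for treated EAE and in red for EAE, for 26 genes chosen for their EAE response or their place in the inflammasome. For Ddit4, Sgk1, Abca1 and Hmgcs1 the 2 intervals are apart, whereas for Nlrp3, Casp1 and Il1b both intervals are wide and cover 0.

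Genes of cholesterol synthesis, which oligodendrocytes and astrocytes need for membranes and myelin, were closely bounded. All 25 were tested. Their median was -0.06 in treated and -0.46 in EAE cortex, where 11 were called lower, beside 0.252% of all tested genes. In treated against naive none was at an unadjusted p under 0.05 (0.638% of all tested genes were lower at that level), and 23 of the 25 intervals lay between -0.5 and 0.5. Such intervals were also found for 85.2% of all tested genes at 10 to 100 CPM and 92.6% at 100 CPM or more. Of the 25 estimates 4 were above 0 and 21 below, whereas 53.6% of all tested genes were above 0. Treated libraries were wholly below naive for 2 members and wholly above for none, beside 2.74% and 3.51% of all tested genes.

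Hmgcs1 (HMG-CoA synthase; chromosome 13, 119690351 to 119708260) was at 310, 303 and 317 CPM in naive, 310, 240 and 291 CPM in treated and 156, 171 and 158 CPM in EAE cortex. Treated replicate 1 was at the naive level and replicate 2 the lowest, yet all were above EAE. The log2 fold change of -0.14 had an interval of -0.35 to 0.07. Against EAE it was 0.80 (adjusted p = 0.0238). The estimates against naive were -0.24 for Mvd (mevalonate decarboxylase), -0.12 for Idi1 (isopentenyl diphosphate isomerase) and -0.10 for the sterol carrier Stard4. Abca1, the cholesterol exporter induced by LXR, was at 0.07 (interval -0.18 to 0.32) and was called higher in EAE (1.02).

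Of the 22 inflammasome and pyroptosis genes 20 were tested. Their median was 0.14 in treated against naive and 0.35 in EAE against naive, none was at an unadjusted p under 0.05 in the former, and 10 of the 20 intervals lay between -1 and 1. Treated libraries were wholly above naive for 4 members, Pycard, Txnip, Il1r1 and, by a margin lost on rounding, Gsdmd, and wholly below for none; over all tested genes the shares were 3.51% and 2.74%.

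The sensor gene Nlrp3 (chromosome 11, 59541569 to 59566955) was at 1.1, 1.58 and 0.758 CPM in naive, 2.56, 1.54 and 1.4 CPM in treated and 0.909, 2.07 and 1.01 CPM in EAE cortex. The 3 groups overlapped. The log2 fold change of 0.69 had an interval of -0.21 to 1.59, and was 0.36 without treated replicate 1. The adaptor gene Pycard (chromosome 7, 127991373 to 127993867) was at 1.7, 1.54 and 1.76 CPM in naive, 1.95, 3.13 and 2.28 CPM in treated and 2.04, 3.85 and 4.48 CPM in EAE cortex. Its treated libraries were above naive and overlapped with EAE. The estimate was 0.56 (SE 0.30, interval -0.12 to 1.24), so the interval leaves room for more than a doubling of the ASC transcript.

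Casp1, the protease, spread as widely within the groups as between them: 1.18, 2.13 and 3.69 CPM in naive, 3.27, 1.49 and 0.919 CPM in treated cortex, with an interval of -1.61 to 1.06. Il1b was under 1 CPM in every library, and its interval of -1.28 to 3.58 bounds little. Il18 was measured far better, at 13.9, 16.6 and 16 CPM in naive and 14.9, 13.4 and 14.9 CPM in treated cortex, with an interval of -0.34 to 0.12. The pore protein gene Gsdmd (chromosome 15, 75862144 to 75867408) was at 2.39, 2.68 and 2.24 CPM in naive, 3.08, 4.01 and 2.68 CPM in treated and 3.41, 7.96 and 5.56 CPM in EAE cortex. The lowest treated library was above the highest naive one only before rounding, and the interval was -0.23 to 1.08 around 0.42.

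The lists of immune cells and activated glia are read beside all tested genes, of which 53.6% had an estimate above 0, 1.07% were higher at an unadjusted p under 0.05 and 3.51% had all treated above all naive libraries. In bulk tissue fewer cells of a type and less RNA per cell cannot be told apart. The 18 complement genes tested had a median of 0.52 in treated and 1.19 in EAE cortex, with 17 estimates above 0 in treated and 2 at an unadjusted p under 0.05, both higher. These were C1s1, a protease of the C1 complex (1.25), and C5ar1, the receptor of C5a (1.64). The 3 treated libraries were above all naive ones for 6 of the 18, beside 3.51% of all tested genes. C3, the central component, was at 0.603, 0.55 and 0.172 CPM in naive, 2.12, 2.44 and 0.735 CPM in treated and 2.27, 11.8 and 28.7 CPM in EAE cortex. No treated library was as low as a naive one, and replicate 3 was the lowest of the treated. The estimate of 1.98 had an interval of -0.28 to 4.24.

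The 18 monocyte and macrophage genes tested of 19 had a median of 0.61 in treated and 2.33 in EAE cortex, and a single interval lay between -1 and 1. Their summed level was 67.1 to 80.3 CPM in naive, 83.8 to 121 CPM in treated and 113 to 352 CPM in EAE libraries. Most of that sum was Fn1, at 46.5 to 57.9 CPM in naive and 66 to 80.8 CPM in treated libraries. The members' mean log2 deviation from the naive mean was 0.866, 1.157 and -0.263 in treated replicates 1, 2 and 3. In naive libraries it ran from -0.183 to 0.189, so treated replicate 3 was below all of them by that measure. At an unadjusted p under 0.05 were Fn1 (fibronectin, 0.49), Ms4a6c (1.37) and the scavenger receptor Msr1. Msr1 was listed at 0 in naive replicates 1 and 2 and at 0.138 CPM in replicate 3, and at 0.342, 0.64 and 0.331 CPM in treated cortex. The neutrophil list had 4 of 11 genes tested. Lcn2 and S100a9 (calprotectin subunit) were at 4.81 and 2.64, while Csf3r (0.01) and Mmp9 (0.02) were at 0, and 7 further genes, S100a8, Ngp, Camp, Ltf, Mmp8, Retnlg and Cxcr2, did not pass the filter. S100a9 was listed at 0 in naive replicates 1 and 2, and its estimate was 1.56 without treated replicate 2 and 6.54 without naive replicate 3. The filter counts libraries of all groups, EAE included. Genes as near 0 in naive as S100a9 and Msr1 pass it through the other groups and can hardly read as lower. With the 6 naive and treated libraries alone, the median of the neutrophil list was 0.0178. T cells, which start EAE, could hardly be followed: 5 of 16 genes were tested, Cd3d, Cd3e and Cd3g did not pass the filter, none of the 5 intervals lay between -1 and 1, and the median was -0.08 with 2 estimates above 0 and 3 below.

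Of the 29 reactive astrocyte genes tested of 31, 3 were at an unadjusted p under 0.05, Lcn2, Vim (vimentin) and Osmr (the oncostatin M receptor), all higher. The list's median was 0.28 in treated and 1.02 in EAE cortex. Treated libraries were wholly above naive for 7 members and wholly below for 1, beside 3.51% and 2.74% of all tested genes. Vim was at 28.4, 26.8 and 26.6 CPM in naive, 34.8, 32.3 and 38.3 CPM in treated and 46.6, 67 and 67.5 CPM in EAE cortex, so that treated libraries formed a middle group. Its estimate was 0.36 (interval 0.06 to 0.67). The identity genes of astrocytes had a median of 0.09 with all 16 intervals between -1 and 1. Among them Gjb6 (connexin 30) was at 0.37 (interval 0.04 to 0.70), against 1.33 in EAE.

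The 26 genes of disease-associated microglia had a median of 0.15 in treated and 0.88 in EAE cortex, with none at an unadjusted p under 0.05 in treated and 14 intervals between -1 and 1. Of the 26 estimates in treated 19 were above 0. Treated libraries were wholly above naive for 6 members and wholly below for none, beside 3.51% and 2.74% of all tested genes. Cst7 (cystatin F, 1.47) and Itgax (CD11c, 1.26), both under 1 CPM in naive and treated cortex, had the largest estimates. The 19 homeostatic microglia genes had a median of 0.15 with 16 intervals between -1 and 1. Of their estimates 14 were above 0, and 1 gene, Mertk, was at an unadjusted p under 0.05. Treated libraries were wholly above naive for 3 of these members and wholly below for none, beside the same shares of all tested genes. MHC class II genes, which present antigen, had a median of 0.45 and 10 of 10 estimates above 0. That median ran from 0.25 without naive replicate 3 to 0.85 without naive replicate 2, and was 0.83 by limma-voom and 1.11 with a CPM of at least 1 asked in 3 libraries. Their H2-Ab1 was at 1.05, 0.733 and 0.931 CPM in naive, 2.52, 3.75 and 1.07 CPM in treated and 2.69, 17.3 and 18.6 CPM in EAE cortex. Treated replicate 3 was next to naive there, and the interval was -0.26 to 3.13. MHC class I had a median of 0.04 against 0.93 in EAE. Its H2-Q6 and H2-Q7 were lower in all treated than in all naive and EAE libraries (-0.73 and -0.55), but these genes have near-identical copies and their counts are uncertain.

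Among cytokines and chemokines 11 of 25 were tested. Their median was 0.55, and 3 were at an unadjusted p under 0.05, all higher: Ccl12 (2.68), Cxcl16 (1.02) and Tgfb1 (0.55). Ccl12, a monocyte attractant, was at 0.391, 2.7 and 0.404 CPM in treated cortex, and its estimate without replicate 2 was 1.09. For 27 type I interferon genes the median was 0.23 in treated and 0.94 in EAE cortex, and none was at an unadjusted p under 0.05 in treated. The acute-phase protease inhibitor A2m was at 1.5, 1.43 and 1.1 CPM in naive, 2.37, 7.83 and 1.65 CPM in treated and 9.48, 31.9 and 24.9 CPM in EAE cortex, an estimate of 1.57 that was 0.58 without treated replicate 2.

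**Figure D5:**
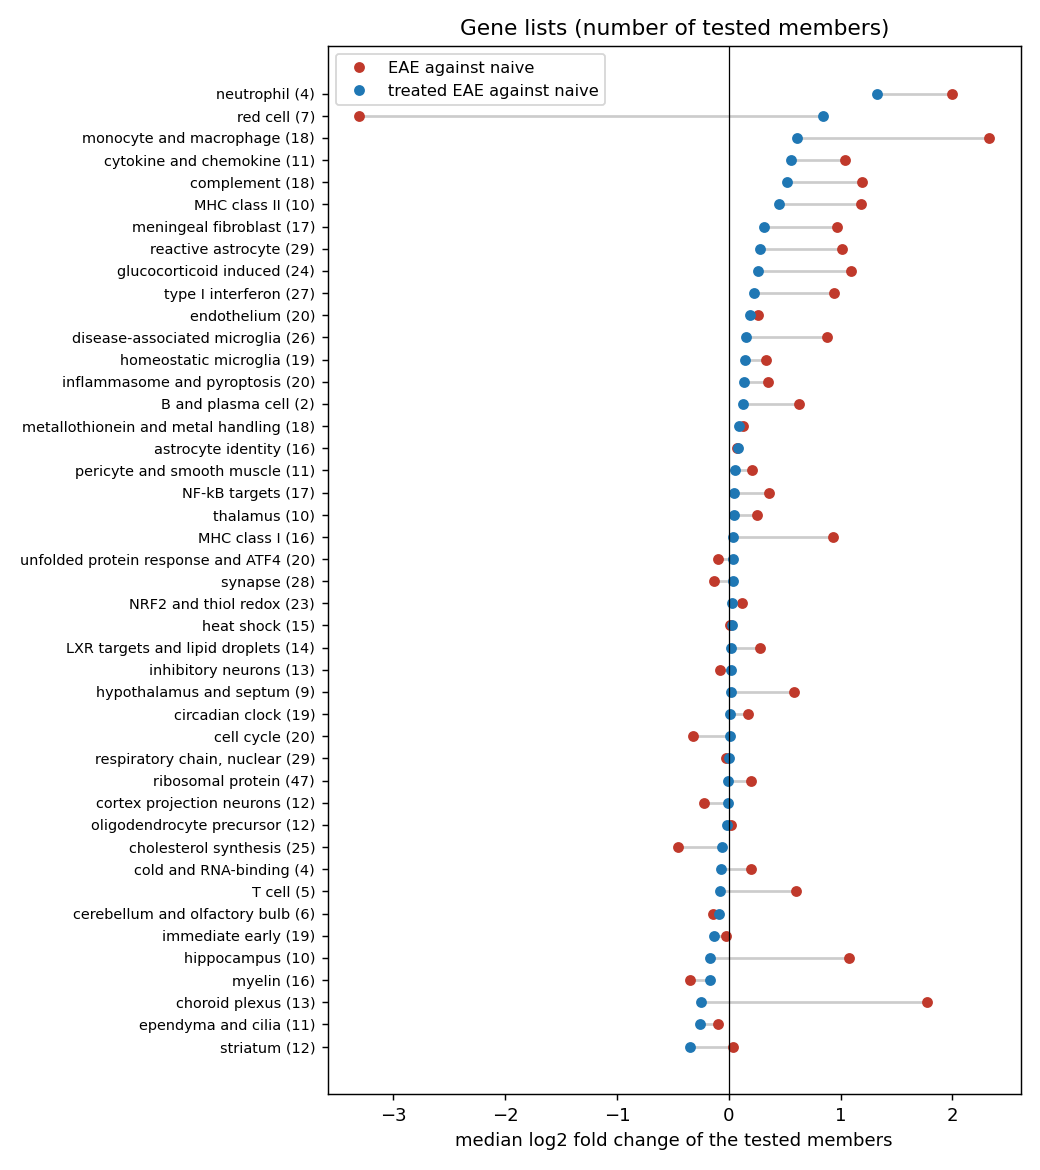
The median log2 fold change of the tested members (x axis) of 44 gene lists (y axis, with the number tested) is shown for treated EAE (blue) and EAE (red) against the same naive libraries. The blue points lie between -0.35 and 1.33, with neutrophil, red cell and monocyte lists at the top and the striatal list at the bottom.

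The endothelial list covers vessel wall and blood-brain barrier genes. Of 20 tested, 17 estimates were above 0, the median was 0.19 and 4 were at an unadjusted p under 0.05, all higher, beside 53.6% of all tested genes above 0 and 1.07% higher at that p. The 4 were Lrg1, Vwf (von Willebrand factor), the glucose transporter Slc2a1 and the lipid transporter Mfsd2a. Vwf was at 20.9, 23.9 and 19.3 CPM in naive, 30.3, 60.2 and 47.8 CPM in treated and 40, 90.5 and 45.4 CPM in EAE cortex. All treated libraries were above naive and overlapped with EAE, with an estimate of 1.11 (SE 0.35, interval 0.32 to 1.90). Slc2a1 was at 0.38 (interval 0.04 to 0.73) and Mfsd2a at 0.36 (interval 0.02 to 0.70). The mean log2 deviation of the 20 genes from the naive mean was 0.015, 0.249 and 0.539 in treated replicates 1, 2 and 3. It ran from -0.018 to 0.022 in naive libraries, so treated replicate 1 was at the naive level. In the pericyte and smooth muscle list the single gene at that level was lower, Cnn1 (calponin, -1.04).

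Red cell genes, which may report blood left in the tissue, had a median far under naive in EAE and not in treated cortex. The source of these transcripts was not tested. The 7 tested of 10 had a median of 0.84 in treated and -3.31 in EAE cortex, and 1 interval lay between -1 and 1. In EAE against naive 3 of the 7 were called lower, beside 0.252% of all tested genes. Their summed level was 293 to 388 CPM in naive, 334 to 552 CPM in treated and 127 to 196 CPM in EAE libraries. Hba-a2 and Hbb-bs were a small part of that sum, above all in EAE, where Hbb-bs was at 4.8, 7.28 and 2.26 CPM. The sum fell less in EAE than these 2 globin genes did. Hba-a2 (alpha globin; chromosome 11, 32296492 to 32297310) was at 28.9, 33.3 and 14.5 CPM in naive, 20.6, 57.7 and 74.4 CPM in treated and 3.47, 2.62 and 1.63 CPM in EAE cortex. Treated replicate 1 was within the naive range and replicates 2 and 3 above it. The interval against naive was -0.12 to 2.10, and treated against EAE was called at 4.30 (adjusted p = 0.0456). Hbb-bs (beta globin) was at 47.1, 55.2 and 45.3 CPM in naive and 30.1, 117 and 118 CPM in treated cortex, with an interval of -0.34 to 2.02. Its treated replicate 1 was below every naive library and replicates 2 and 3 above them. Globin genes have near-identical copies, so their counts may be split. Whether the animals were perfused is not stated.

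Close bounds were found for neurons and for the shared machinery of cells, as for most genes at 10 CPM or more. Of all tested genes at 10 to 100 CPM, 85.2% had intervals between -0.5 and 0.5, and 92.6% did at 100 CPM or more. All 28 synaptic genes had intervals between -1 and 1, 26 of them between -0.5 and 0.5, with a median of 0.03. Syn1 (synapsin) was at 618, 548 and 538 CPM in naive and 605, 630 and 611 CPM in treated cortex. All 47 ribosomal protein genes and all 29 nuclear genes of the respiratory chain had intervals between -0.5 and 0.5. The widest bounds in the latter were -0.31 for Ndufa2 and 0.35 for Ndufa1. Estimates ran from -0.12 (Rps16) to 0.14 (Rplp0) in the ribosomal list and from -0.11 (Ndufb10) upward in the other. Of 12 projection neuron markers 11 were bounded between -1 and 1, with a median of -0.01. Slc17a7, the vesicular glutamate transporter, was at 1350, 1380 and 1230 CPM in naive and 1440, 1390 and 1420 CPM in treated cortex (interval -0.07 to 0.27). Among 13 interneuron genes, all bounded between -1 and 1, Lhx6 was at an unadjusted p under 0.05 (0.26, interval 0.05 to 0.47).

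Most stress and clock genes were also bounded between -1 and 1, as were 97.5% of all tested genes at 10 to 100 CPM. The lists of NRF2 and thiol redox (median 0.03, 23 of 23 intervals between -1 and 1), heat shock (0.02, 15 of 15), the unfolded protein response (0.04, 19 of 20), metallothionein and metal handling (0.09, 17 of 18) and the circadian clock (0.01, 19 of 19) had few genes at an unadjusted p under 0.05: Mt2 and the clock repressor Ciart (0.48), both higher. Rbm3, a cold-inducible RNA-binding protein called higher in EAE (0.62), was at 75.4, 76.5 and 73 CPM in naive and 73.3, 66.3 and 68.2 CPM in treated cortex. Its interval was -0.26 to 0.04, and treated against EAE was called at -0.73 (adjusted p = 0.00493). In the cell cycle and immature neuron list Dcx (doublecortin) was lower at an unadjusted p under 0.05 (-0.20, with an interval from -0.39 to just under 0).

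Of the 44 lists, the one of striatal markers had the widest intervals, so large differences there could have gone undetected. None of the 12 striatal intervals lay between -1 and 1, and their median half-width was 1.96. Drd2 (dopamine receptor D2) was at 67.4, 13.4 and 3.93 CPM in naive and 7.94, 39.4 and 8.01 CPM in treated cortex, a spread within each group far larger than the difference between them. Its interval was -3.47 to 2.23, and its estimate of -0.62 was 1.09 without naive replicate 1. Myelin genes had a median of -0.17 and 12 of 16 intervals between -1 and 1. Their mean deviation from naive was -1.005, -0.37 and 0.603 in treated replicates 1, 2 and 3. Choroid plexus genes (median -0.25) had 2 of 13 intervals between -1 and 1, and meningeal fibroblast genes (median 0.31) 2 of 17. The part of neighbouring tissue in the estimates of the other lists was not tested.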

How the data were processed

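RNA of mouse cortex was sequenced in 9 libraries, 3 per group. Per the series' design text the authors checked reads with FastQC, trimmed them with fastp, aligned them with Hisat2 and quantified genes with bowtie2; the submitters' processing notes give FastQC 0.11.8 and the build mm10. The gene annotation, strand setting and counting options are not stated. The authors deposited 1 table of raw counts per gene symbol; 7089 of its 34714 symbols were at 0 in all 9 libraries, and 9 columns that match no sample used here were left out. Genes with 2 counts outnumbered those with 1 count by 3.8 to 4.43 times in each library, so a count may not stand for 1 independent fragment; the dispersion is estimated between libraries.

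The test was the quasi-likelihood F test of edgeR 4.0.16 under R 4.3.3, with filterByExpr, TMM factors and robust dispersions. The fit took in all 9 libraries and no factor but the group (6 residual degrees of freedom). Benjamini-Hochberg adjustment ran over 18644 genes with a threshold of 0.05, and adjusted p-values are from edgeR unless another tool is named. SE is the absolute log2 fold change over the square root of F. The 95% interval is the log2 fold change plus or minus SE times the t quantile at the fit's total degrees of freedom (5.95 to 9.72). CPM values are TMM-scaled. The model was tested on simulated data. DESeq2 1.42.0, limma-voom (limma 3.58.1), other filters, RLE size factors, 6 libraries, a replicate block and each library left out were the alternatives.

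The members, the 44 gene lists and the named genes were chosen with earlier results of these data known, so lists are described by counts and medians without a test. No gene was called, so the rule named the 10 genes with the smallest p per direction (mean log2 CPM of at least 0, no placeholder symbol), the inflammasome genes, genes earlier named for EAE and up to 4 members per list. Hif3a, Angptl4, Sult1a1, Gm46731 and the genes of the closing section were chosen after their values were seen. Positions are from RefSeq for GRCm38.p6 and exon overlaps from GENCODE M21. Besides the overlaps given with the genes, Carf overlaps Wdr12, Dazap1 Gm15122, Ube2e1 Nkiras1, Pycard Gm45205, Il1b Il1bos, Txnip Gm15441, Hmgcs1 Gm48342, Idi1 Gm48574 and Rbm3 Rbm3os, all antisense, and their reads may be mixed. In all, 14637 of the tested genes have a RefSeq promoter entry.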

Additional observations from a re-analysis of the deposited data

How the results depend on the processing

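edgeR called 0 genes under every alternative, DESeq2 called 3, with or without the limit of 1 on the absolute log2 fold change, and limma-voom 0. The lowest adjusted p in edgeR was 0.0626, without treated replicate 1, and every other alternative but 2 left it at 1 (0.949 with the replicate block, 0.714 without naive replicate 3). The count at an unadjusted p under 0.05 ran from 262 to 677 with 1 library left out, and the count of genes without overlap from 1168 to 3648, since fewer libraries overlap less often. The number of intervals between -1 and 1 stayed within 1.5 times the reported count under all alternatives. No label pairs the samples by replicate number. Deviations of same-numbered naive and treated libraries correlated at -0.246, -0.121 and 0.199, and only replicate 3 correlated best with its own number. With 3 libraries per group, these correlations cannot decide whether the numbers mark a shared batch or day. With the replicate number as a block 0 genes were called and 384 were at an unadjusted p under 0.05.

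List medians moved beyond the spread of the treated libraries in the cases below. Where the filter or the libraries changed, the members that passed the filter could change too. How much of each move came from that was not tested. The neutrophil median was 0.0178 with 6 libraries and 0.0131 with a CPM of at least 1 in 3 libraries, a filter that also gave -0.3917 for T cell and 1.1055 for MHC class II genes. The median of MHC class II was 0.8253 by limma-voom, and that of cerebellum and olfactory bulb -0.3016 without a filter. With 1 library left out the medians ran from 0.132 to 0.3003 for the inflammasome, 0.8673 to 2.3068 for neutrophil, -0.0864 to 0.4457 for T cell, 0.2522 to 0.8521 for MHC class II, -0.1775 to 0.0586 for projection neuron, -1.1065 to 0.6807 for striatal, -0.0054 to 0.0438 for synaptic, 0.0438 to 0.1254 for metallothionein, 0.0016 to 0.0373 for unfolded protein response and 0.0074 to 0.0602 for heat shock genes. Named genes whose sign turned when 1 library was left out were Casp1 (-0.929 to 0.2252), Idi1 (-0.2717 to 0.0145), Abca1 (-0.0128 to 0.1307), Csf3r (-0.1772 to 0.1249), Mmp9 (-0.2279 to 0.305), Adora2a (-1.6199 to 0.5959) and Drd2 (-1.844 to 1.0903). Csf3r was also at -0.0014 with the stricter filter and -0.0250 by limma-voom. Depth and spread limit genes below 1 CPM most.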

Other observations

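Treated libraries lay outside the range of all 6 naive and EAE libraries for 257 genes, none of which edgeR called against naive. Examples below were chosen after their values were seen. Bsn, which encodes the presynaptic scaffold Bassoon, was at 654, 691 and 605 CPM in naive, 759, 724 and 792 CPM in treated and 673, 590 and 694 CPM in EAE cortex, a log2 fold change against naive of 0.22 (interval 0.03 to 0.41). Rnf130, a ubiquitin ligase, was at 216, 199 and 203 CPM in naive and 236, 248 and 221 CPM in treated cortex (0.19, interval 0.02 to 0.36). Tmem132d was at 34.5, 36 and 37.4 CPM in naive, 37.5, 46.4 and 47.5 CPM in treated and 33.8, 29.2 and 27.1 CPM in EAE cortex. Egf, the epidermal growth factor gene, was at 2.1, 2.05 and 2.14 CPM in naive and 1.39, 1.64 and 1.32 CPM in treated cortex (-0.53, interval -0.98 to -0.07). Lncppara, a noncoding RNA, was lower in treated cortex than in naive by -0.45 and than in EAE by -1.23, and the second was called by edgeR (adjusted p = 0.0364).

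Abi2, a subunit of the WAVE actin complex, was split within the treated group. It was at 208, 232 and 179 CPM in naive and 200, 186 and 184 CPM in EAE libraries, and at 200, 98.3 and 94.2 CPM in treated replicates 1, 2 and 3. With treated replicate 1 left out its log2 fold change was -1.11, with the lowest adjusted p of any gene and alternative in edgeR, 0.0626.

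Several genes outside the fixed lists were also higher in all treated than in all naive libraries. Slc7a5, the large neutral amino acid transporter, was at 70.9, 73.9 and 83 CPM in naive and 94.3, 87.3 and 102 CPM in treated cortex (0.31, interval 0.11 to 0.52), and was not called in EAE (0.10). Ahnak, a large scaffold protein gene, was at 39, 36.6 and 44.1 CPM in naive, 51.2, 58.9 and 55.4 CPM in treated and 67.5, 96.5 and 70.3 CPM in EAE cortex. Galnt15, a glycosyltransferase, and Fas, the death receptor, were at 0.85 and 0.92 against naive, beside 1.87 and 1.63 in EAE, where both were called.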
